A study of Saccharomyces cerevisiae with 4 samples.

Results

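The genes described here encode the translation initiation factor eIF2, its guanine nucleotide exchange factor eIF2B, the kinase Gcn2 that acts on eIF2, and the transcription factor Gcn4, whose translation depends on both factors. They were chosen by systematic name as the rows of SUI2, SUI3, GCD11, GCN3, GCD7, GCD1, GCD2, GCD6, GCN2 and GCN4, which makes 10 of the 7127 features in the count files, and all 10 passed the filter on low counts. Messenger RNA was measured by sequencing on an Ion Torrent instrument in haploid Saccharomyces cerevisiae of the S288C background, with 2 libraries of the wild type and 2 of a tor1 deletion strain. The wild type was BY4741, with the genotype MATa, his3-1, leu2-0, met15-0 and ura3-0, and the deletion strain had the same auxotrophic mutations together with YJR066w::kanMX4, in which a drug-resistance cassette replaces TOR1, a gene for a kinase that couples nutrients to growth. Each strain was a single genotype, and TOR2, the gene for the paralogous kinase, is not listed among the mutated genes. Both strains grew at 30 °C in minimal medium with 2% dextrose, 0.5% ammonium sulfate, histidine, leucine, methionine and uracil and were taken in logarithmic growth at an OD600 of 0.5 to 0.7, and the titles add a time of 4 h. The comparison asks how the loss of TOR1 changes the transcriptome.

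The libraries held 8060480 to 14446057 counts, of which the 10 genes took 0.126% to 0.168%. Reads of TOR1 numbered 635 and 357 in wild-type cells but 0 and 1 in cells labelled as the deletion. LEU2 had 0 counts in every library, and MET17 and URA3 had at most 3. The 5 markers of MATa cells summed to between 5312 and 6114 CPM, and the 4 markers of MATα cells to between 34.3 and 45.9 CPM. CPM here are counts brought to a common library size with TMM, the trimmed mean of M values, a scaling that centres most genes. Whether libraries 1 and 2 of each strain are independent cultures is not stated in the labels, so the p-values reflect library-to-library spread that may be purely technical. In bulk RNA, fewer cells in a given state and less RNA per cell cannot be told apart.

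In eukaryotes eIF2, a trimer, carries the initiator methionyl-tRNA to the small ribosomal subunit and leaves it bound to GDP. The exchange factor eIF2B reloads it with GTP. When amino acids run short, uncharged tRNA activates Gcn2, which phosphorylates the alpha subunit of eIF2, and phosphorylated eIF2 inhibits eIF2B. General translation then falls while translation of GCN4 mRNA rises, and Gcn4 activates genes of amino acid biosynthesis, a response known in yeast as general amino acid control. TOR complex 1 is known to restrain Gcn2 through the Tap42 and Sit4 phosphatase branch.

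The GCN4 leader carries the elements that link this gene to eIF2. The R64 assembly annotates 4 upstream open reading frames (uORFs) before GCN4 (YEL009C, chromosome V, 138918 to 139763, minus strand), shown because they let translation and mRNA level of GCN4 part ways. They are printed 5′ to 3′ from the RefSeq R64 genome, with start and stop codons in capitals, and lie on the minus strand of chromosome V.
uORF1: ATGgcttgcTAA
uORF2: ATGtgtTAA
uORF3: ATGtacccgTAG
uORF4: ATGtttccgTAA
They occupy chrV:140113-140124, chrV:140048-140056, chrV:139928-139939 and chrV:139903-139914, beginning 361, 293, 176 and 151 bases before the GCN4 start codon. The counts measure mRNA, so translation through these elements was not observed.

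The 3 eIF2 genes stayed near their wild-type levels, whereas 3 of the 5 eIF2B genes fell by 1.87-fold to 2.74-fold in the tor1 deletion. GCN2 and GCN4 lay on opposite sides of 0, at -0.58 and 0.48 on the log2 scale, and neither passed the test. Of the 10 genes, 3 were called lower and 0 higher (quasi-likelihood F test of edgeR, Benjamini-Hochberg adjusted p below 0.05 over 6197 tested genes), where 24.9% of all tested genes were called lower, 26.9% higher and 51.8% in either direction. At an unadjusted p below 0.05, 5 of the genes were lower and 0 higher. The share of all tested genes below that unadjusted threshold was not counted. DESeq2 and limma-voom also called 3 of the 10 lower and 0 higher, beside 1434 and 1600 lower calls over all genes. The median log2 fold change of the 10 genes was -0.35, beside -0.02 for all tested genes. For 7 of the 10 genes the values of the strains stood fully apart, 6 of them lower and 1 higher, where 78.9% of all tested genes stood apart, 40.2% lower and 38.6% higher. Every change below is the log2 ratio of the deletion to the wild type, ± SE, from 2 libraries on each side. The count of lower genes rose to 5 with the edgeR likelihood ratio test and with library totals in place of TMM. It rose to 7 with upper quartile factors. Over all 6197 tested genes, lower calls went from 1543 to 1758, 2328 and 2508 with these settings, in that order. Where a deletion library was left out, the lone library was assumed to vary like the wild type, whose libraries were closer together. Such fits cannot measure the spread between deletion libraries, so genes that did not pass are given for them with the change alone. Library totals and upper quartile factors shifted the median of all genes by -0.33 and -0.39, and higher genes then made up 33.6% and 30.7% of all calls in place of 51.9%.

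**Figure D1:**
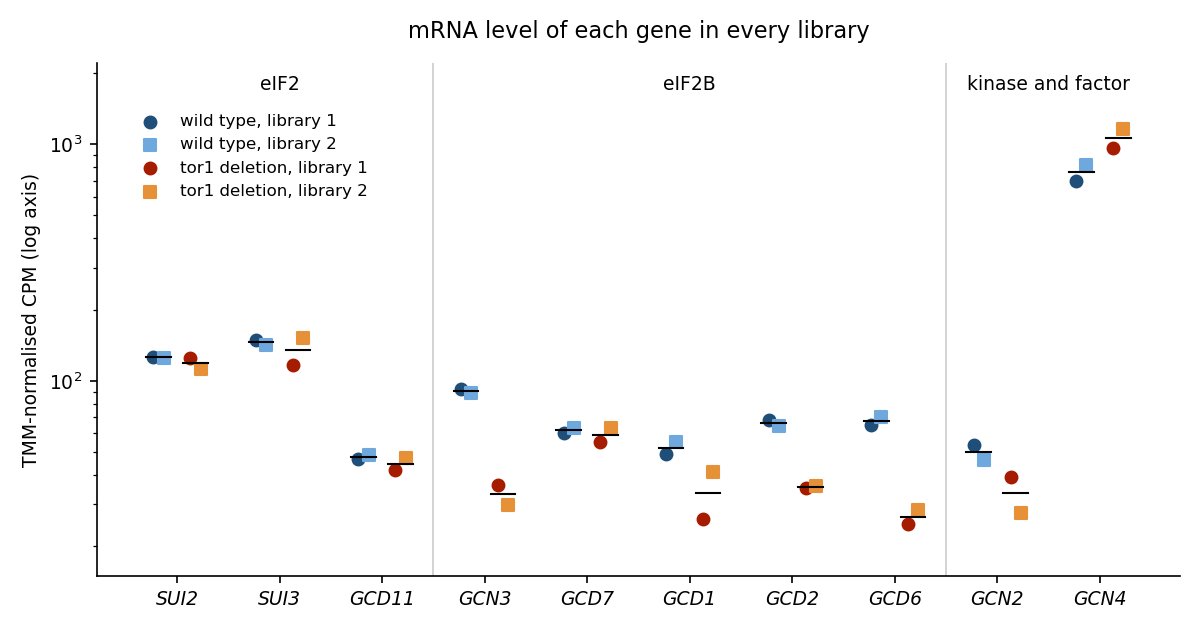
TMM-normalised CPM on a log axis for the 10 genes, with each library as a point, wild type in blue and tor1 deletion in red and orange, and the mean of each strain as a black bar. The 2 strains lie apart for GCN3, GCD2 and GCD6 and are close for SUI2, SUI3, GCD11 and GCD7, and GCN4 stands at 702 to 1161 CPM above all the others.

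SUI2 (YJR007W, chromosome X, 451020 to 451934, plus strand) encodes the alpha subunit of eIF2, the substrate of Gcn2. Wild-type libraries had 126 and 125.1 CPM, deletion libraries 124.8 and 112 CPM. The closest libraries of the strains were therefore almost equal, and the change of -0.08 ± 0.16 did not pass (edgeR adjusted p = 0.685). SUI3 (YPL237W, chromosome XVI, 100496 to 101353, plus strand) encodes the beta subunit, which contacts eIF5 and the catalytic subunit of eIF2B. It was at 149 and 141 CPM in the wild type and at 117 and 152 CPM in the deletion, so the deletion libraries lay on either side of the wild type. The change was -0.11 ± 0.19 (edgeR adjusted p = 0.637). GCD11 (YER025W, chromosome V, 205251 to 206834, plus strand) encodes the gamma subunit, which binds GTP and the initiator tRNA. It had 46.6 and 48.7 CPM in the wild type and 42.1 and 47.1 CPM in the deletion, with a change of -0.09 ± 0.17 (edgeR adjusted p = 0.669), and the strains overlapped. None of the 3 had an unadjusted p below 0.05, and neither DESeq2, limma-voom nor the likelihood ratio test called any. Upper quartile factors called SUI2 and GCD11 lower, at -0.48 and -0.49, close to the -0.39 by which that scaling moved all genes. Without deletion library 2 SUI3 stood at -0.32.

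Within eIF2B the subunit genes split. GCN3, GCD6 and GCD2 fell, GCD1 did not pass, and GCD7 stayed level. In these genes both deletion libraries lay below both wild-type libraries in 4 of 5 cases, where 40.2% of all tested genes did so. GCN3 (YKR026C, chromosome XI, 488738 to 489655, minus strand) encodes the alpha subunit, the only eIF2B subunit dispensable for growth and one needed for inhibition by phosphorylated eIF2. It had 91.9 and 88.9 CPM in the wild type and 36.2 and 29.9 CPM in the deletion, and fell by 1.45 ± 0.18 (edgeR adjusted p = 0.001), with wide separation of the strains. GCD6 (YDR211W, chromosome IV, 884727 to 886865, plus strand) encodes the epsilon subunit, which carries the exchange activity. Its levels were 65.3 and 70.4 CPM in the wild type and 24.7 and 28.5 CPM in the deletion, and it fell by 1.35 ± 0.18 (edgeR adjusted p = 0.00132). For both genes the call held in all 15 alternatives, among them each library left out.

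GCD2 (YGR083C, chromosome VII, 644860 to 646815, minus strand) encodes the delta subunit of the regulatory part of eIF2B. Its 2 deletion libraries almost coincided, at 35 and 36.1 CPM, below wild-type values of 68.2 and 64.7 CPM. It fell by 0.90 ± 0.17 (edgeR adjusted p = 0.00462), a call that was lost without wild-type library 1 (-0.86, adjusted p = 0.0779). GCD1 (YOR260W, chromosome XV, 813984 to 815720, plus strand) encodes the gamma subunit, the partner of Gcd6 in the catalytic part. It had 48.8 and 55.2 CPM in the wild type and 26 and 41.3 CPM in the deletion, so the strains did not overlap but the deletion libraries were far apart. Its change of -0.62 ± 0.25 missed the threshold (edgeR adjusted p = 0.0725). GCD1 was called lower with the likelihood ratio test (adjusted p = 0.0461), library totals (0.0213) and upper quartile factors (0.0116). Its change was -0.33 without deletion library 1 and -0.9989 without deletion library 2. GCD7 (YLR291C, chromosome XII, 718317 to 719462, minus strand) encodes the beta subunit, which belongs to the regulatory part with Gcn3 and Gcd2. It was at 60.3 and 63.2 CPM in the wild type and at 54.9 and 63.3 CPM in the deletion. The libraries overlapped, with a change of -0.06 ± 0.17 (edgeR adjusted p = 0.776). Each part of the complex held a gene that was called lower and a gene that did not pass. In the catalytic part both changes were negative, and a difference between the parts was not tested.

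Relative levels within a complex do not depend on the scaling between libraries. Divided by coding length, eIF2 mRNAs (geometric mean of the 3 genes) exceeded eIF2B mRNAs (geometric mean of the 5) by 2.04-fold and 1.97-fold in wild-type cells and by 3.50-fold and 3.41-fold in deletion cells. The excess of eIF2 over eIF2B was thus larger in both deletion libraries than in either wild-type library. The ratio of GCN3 to GCD7 per coding length was 1.90 and 1.76 in wild-type cells against 0.824 and 0.591 in deletion cells, so the order of these subunit mRNAs turned around. The ratio of GCD6 to GCD7 went from 0.580 and 0.597 to 0.241 in each deletion library, with almost no spread within a strain. The ratio of GCD2 to GCD7 went from 0.662 and 0.600 to 0.374 and 0.334. With 2 libraries against 2, an exact two-sided permutation test cannot give a p below 0.333, so these ratios are descriptions.

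Measured against the geometric mean of its own complex, GCD7 went from 0.28 to 1.10 on the log2 scale (means of 2 libraries), a shift of 0.82. This was a relative shift, as GCD7 itself stayed level (-0.06 ± 0.17). The eIF2B mean went from 43.6 and 45.0 CPM per kb in the wild type to 22.6 and 25.4 in the deletion. On the same measure GCN3 went down, from 1.15 to 0.58, with its deletion libraries apart at 0.81 and 0.36. GCD6 went from -0.48 to -0.95. GCD2 was at -0.38 and -0.40, so it fell about as much as the average of the complex, and the libraries of GCD1 overlapped. In eIF2 the same measure moved by 0.02, -0.02 and 0.00 for SUI2, SUI3 and GCD11.

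**Figure D2:**
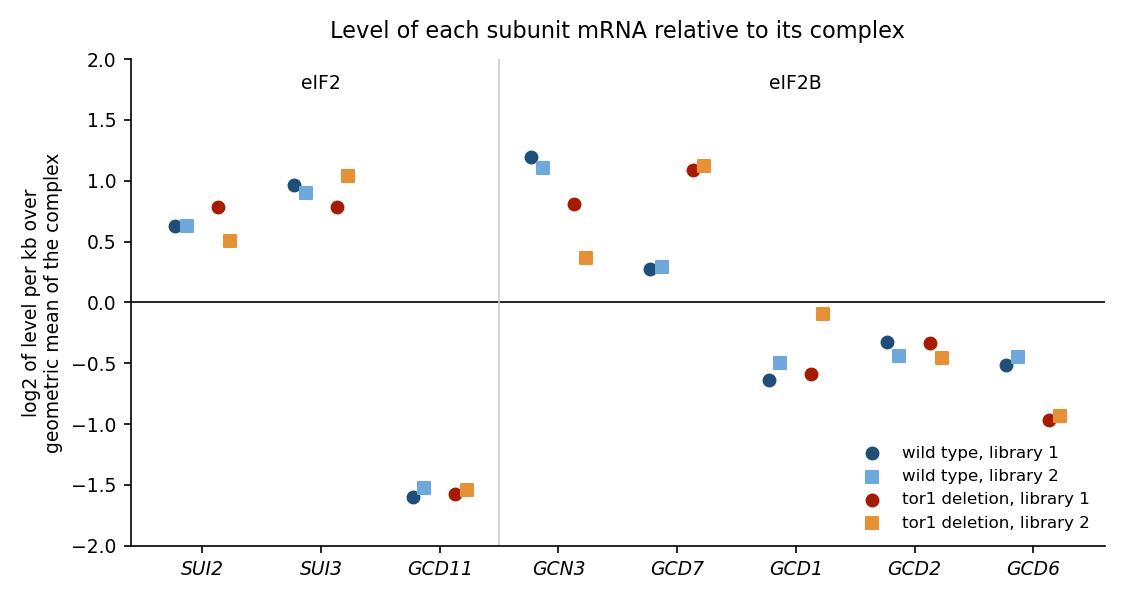
Log2 ratio of each subunit mRNA per kb of coding length to the geometric mean of its complex, with each library as a point. GCD11 is the lowest eIF2 subunit in all 4 libraries, and SUI3 and SUI2 nearly coincide at 0.79 in deletion library 1. GCD7 lies above its wild-type position and GCN3 and GCD6 below theirs in both deletion libraries.

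Across the 10 genes the order of levels per kb of coding length was led by GCN4, at 900 ± 98.1 CPM per kb in the wild type and 1254 ± 166 in the deletion (SD, n = 2). It was followed in the wild type by SUI3 (169 ± 6.65), SUI2 (137 ± 0.703), GCN3 (98.4 ± 2.32), GCD7 (53.9 ± 1.76) and GCD2 (34.0 ± 1.27). GCD6, GCD11 and GCD1, at 31.7, 30.1 and 29.9 CPM per kb, overlapped in neighbouring pairs, and GCN2 was lowest at 10.02 ± 1.03. In the deletion GCN3, at 36.0 ± 4.82, came after GCD7, at 51.5 ± 5.18, and GCD6 dropped to the place just above GCN2, at 12.4 ± 1.24 against 6.71 ± 1.65. SUI3 and SUI2 overlapped there, as did GCD1 and GCD2. GCD11 was 5.63-fold below the highest eIF2 subunit in the wild type and 5.56-fold below it in the deletion.

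GCN2 and GCN4 shifted apart without passing the test. GCN2 (YDR283C, chromosome IV, 1025070 to 1030049, minus strand), the kinase that senses uncharged tRNA, had 53.5 and 46.3 CPM in the wild type and 39.2 and 27.6 CPM in the deletion. Both deletion libraries were below both wild-type libraries, and the change was -0.58 ± 0.22 (edgeR adjusted p = 0.065). Without deletion library 1 it stood at -0.86 and without deletion library 2 at -0.35. The likelihood ratio test (adjusted p = 0.0437), library totals and upper quartile factors called it lower. GCN4 had 702 and 820 CPM in the wild type and 962 and 1161 CPM in the deletion, and took 0.0797% and 0.0906%, then 0.0831% and 0.107% of the counts. Both deletion libraries were above both wild-type libraries in CPM, but the raw shares overlapped. The change of 0.48 ± 0.21 did not pass (edgeR adjusted p = 0.0956), and was 0.61 without deletion library 1. It was 0.16 by library totals and 0.08 by upper quartile factors, values that stay above the shifted median of all genes.

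Among 26 other genes of the pathway, 5 were called higher and 5 lower, and the remaining 16 did not pass, where 51.8% of all tested genes were called. Of 7 regulators of Gcn2 or of eIF2 phosphorylation, a pair of phosphatase genes rose. GLC7, the catalytic subunit of type 1 phosphatase, which removes the phosphate from eIF2, went from 111 and 105 CPM to 290 and 353 CPM, a rise of 1.57 ± 0.18 (edgeR adjusted p = 0.000747). SIT4, the phosphatase of the TOR branch that acts on Gcn2, went from 90.8 and 99.4 CPM to 197 and 205 CPM, a rise of 1.08 ± 0.16 (edgeR adjusted p = 0.00204), while TAP42, encoding its TOR-controlled partner, was at -0.13 ± 0.17. Both rises held in all 15 alternatives. GIR2, a Gcn1-binding protein gene, fell by 0.53 ± 0.16 (edgeR adjusted p = 0.0281), a call lost with DESeq2 (0.0572), with a replicate block (0.0533) and without either wild-type library (-0.51, adjusted p = 0.307, and -0.54, adjusted p = 0.262). GCN1 and GCN20, the ribosome-bound activators of Gcn2, were at -0.41 ± 0.23 and -0.14 ± 0.30, and YIH1, an inhibitor that competes for Gcn1, was at -0.39 ± 0.28. None of these 3 passed, and in each the deletion libraries lay far apart. Without deletion library 1 GCN1 and YIH1 stood at -0.74 and -0.87, and GCN20 turned to 0.24. Without deletion library 2 GCN20 stood at -0.68. Library totals called GCN1 and YIH1 lower (-0.75, edgeR adjusted p = 0.0216, and -0.73, edgeR adjusted p = 0.0437). Upper quartile factors called GCN1 and TAP42 lower (-0.81, edgeR adjusted p = 0.0224, and -0.53, edgeR adjusted p = 0.0286).

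**Figure D3:**
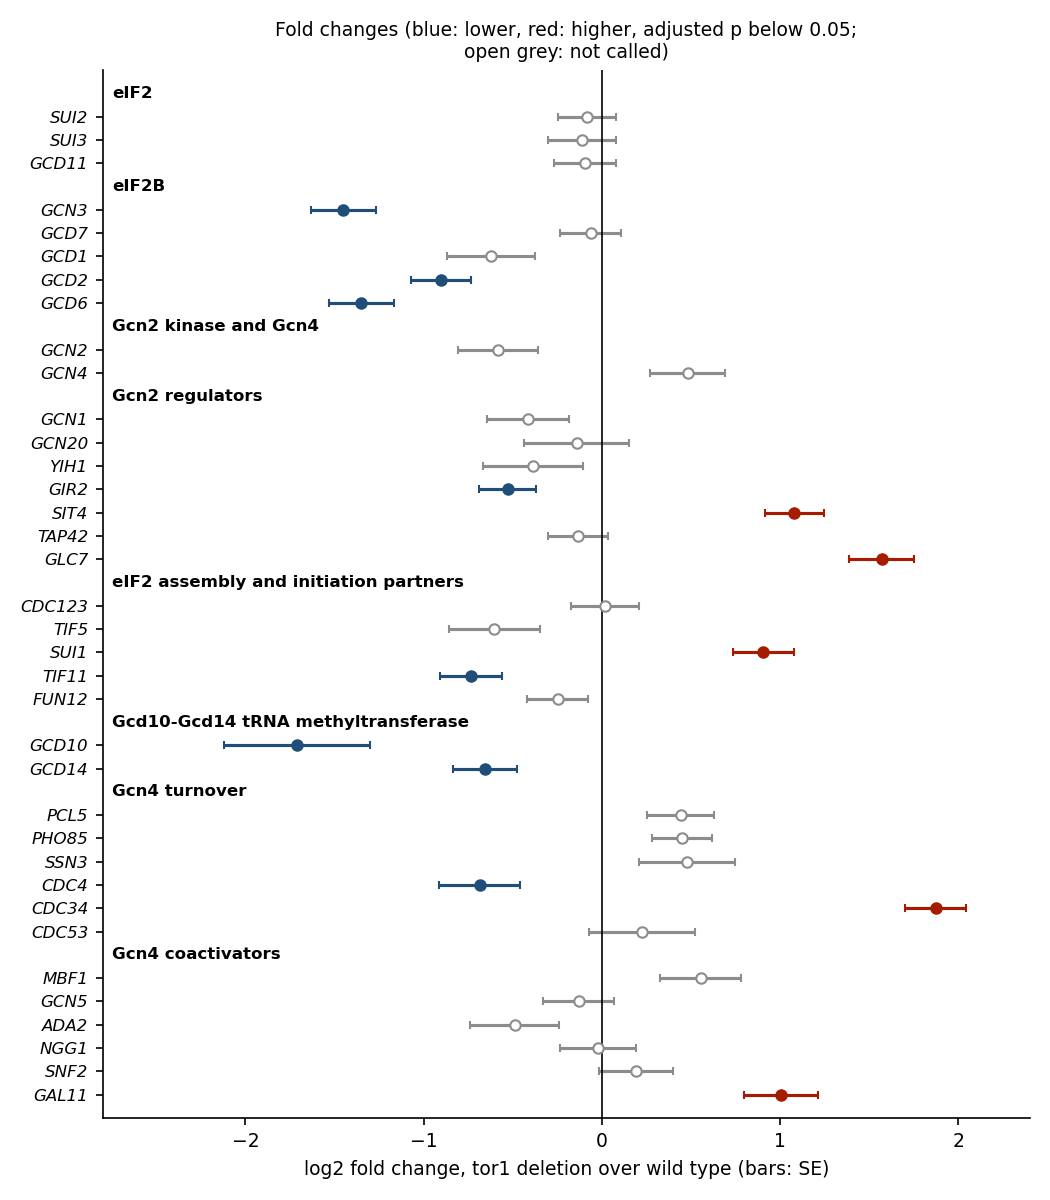
Log2 ratios of deletion to wild type, with bars for the SE from 2 libraries on each side, for the 10 genes and 26 other genes of the pathway, with filled blue for lower, filled red for higher and open grey for genes that did not pass. The 3 lower eIF2B genes reach from -0.90 to -1.45, and CDC34 and GLC7 are the highest at 1.87 and 1.57.

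Among 5 partners of eIF2 in assembly and initiation, SUI1, encoding eIF1, which guards start codon choice, rose by 0.90 ± 0.17 and TIF11, encoding eIF1A, fell by 0.73 ± 0.18 (edgeR adjusted p = 0.00474 and 0.0119). Both calls were lost when either wild-type library was left out, SUI1 at 0.90 (adjusted p = 0.0731) and 0.91 (0.074) and TIF11 at -0.80 (0.08) and -0.66 (0.161). CDC123, the assembly factor that joins Gcd11 to the other eIF2 subunits, was at 0.02 ± 0.19, did not pass and changed sign in 6 of the 15 alternatives, among them library totals (-0.30) and upper quartile factors (-0.38). TIF5, encoding eIF5, the GTPase-activating protein of eIF2, was at 121 and 115 CPM in the wild type and at 58.2 and 97.3 CPM in the deletion, and FUN12, encoding eIF5B, was at -0.25 ± 0.17. Neither passed, and without deletion library 2 they stood at -1.03 and -0.35. Library totals (adjusted p = 0.0239 and 0.0334) and upper quartile factors (0.0135 and 0.0156) called both lower, and a replicate block called TIF5 (adjusted p = 0.0177). GCD10 and GCD14, whose proteins form the methyltransferase that stabilises initiator tRNA, both fell. GCD10 went from 32.8 and 38 CPM to 15.8 and 6.14 CPM, and GCD14 from 61.4 and 63.6 CPM to 43.2 and 36.2 CPM (edgeR adjusted p = 0.0119 and 0.0206). The GCD14 call was lost without wild-type library 1 (-0.67, adjusted p = 0.179) and without wild-type library 2 (-0.63, adjusted p = 0.21).

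Gcn4 is a short-lived protein that is phosphorylated and then marked with ubiquitin for destruction. Of 6 genes for this turnover, CDC34, the ubiquitin-conjugating enzyme, rose by 1.87 ± 0.17, from 64.6 and 69.7 CPM to 231 and 260 CPM (edgeR adjusted p = 0.000328), the largest change among the pathway genes apart from the target enzymes described below. CDC4, the F-box protein that recognises Gcn4, fell by 0.69 ± 0.23 (edgeR adjusted p = 0.0384), with the call lost without wild-type library 1 (-0.61, adjusted p = 0.241) or 2 (-0.75, adjusted p = 0.131). PHO85 and SSN3, kinases that phosphorylate Gcn4, and PCL5, the cyclin that directs Pho85 to it, were at 0.45 ± 0.17, 0.48 ± 0.27 and 0.44 ± 0.19, and CDC53, the cullin, was at 0.22 ± 0.30. These 4 did not pass. Without deletion library 1 PCL5, PHO85, SSN3 and CDC53 stood at 0.37, 0.49, 0.82 and 0.62. Without deletion library 2 PCL5 and PHO85 stood at 0.51 and 0.40, and CDC53 turned to -0.33. CDC53 also turned to -0.17 with upper quartile factors and to -0.09 with library totals. The authors' normalised table called PHO85 higher (limma adjusted p = 0.0474). Of 6 coactivator genes GAL11, a Mediator subunit, rose by 1.01 ± 0.21 (edgeR adjusted p = 0.0067), which was lost without wild-type library 1 (0.98, adjusted p = 0.0642). MBF1, the bridging factor between Gcn4 and the TATA-binding protein, was at 0.55 ± 0.22 and passed with DESeq2 (adjusted p = 0.041). It stood at 0.78 without deletion library 2. GCN5, ADA2, NGG1 and SNF2, of the SAGA and SWI/SNF complexes, lay between -0.49 and 0.19 and did not pass. Without deletion library 2 ADA2 stood at -0.70 and SNF2 at 0.38. Under library totals and upper quartile factors ADA2 was called lower (-0.81 and -0.88) and SNF2 turned to -0.14 and -0.20. GCN5 turned to 0.02 without deletion library 2, and NGG1 to 0.06 without wild-type library 1 and 0.19 without deletion library 1.

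The 40 listed genes that Gcn4 activates serve amino acid biosynthesis, apart from a pair of vitamin B6 genes, both called lower. Of the 40, 22 were called lower, 0 higher and 18 did not pass (edgeR), where 24.9% of all tested genes were called lower. At an unadjusted p below 0.05, 26 were lower and 0 higher, a threshold at which the share of all genes was not counted. DESeq2 called 27 lower and 0 higher, and limma-voom 22 and 0, beside 1434 and 1600 lower calls over all genes. Both deletion libraries were below both wild-type libraries for 34 of the 40, beside 40.2% of all genes. Of the 18 that did not pass 16 were below 0 and LEU4 and ARO3 were above it, at 0.29 and 0.14. With upper quartile factors LEU4 and ARO3 turned to -0.10 and -0.25, and with library totals to -0.04 and -0.19. ARO3 was also at -0.05 without deletion library 1. The list had a median of -0.75, beside -0.02 for all genes. The count was 13 without wild-type library 1 and 10 without wild-type library 2.

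ARG8, an enzyme gene of ornithine synthesis, fell the most, from 298 and 294 CPM to 93.2 and 53 CPM, a change of -2.02 ± 0.28 (edgeR adjusted p = 0.00136). HIS7 and HIS1, of histidine synthesis, fell, with changes of -1.70 ± 0.27 and -1.62 ± 0.27, and HOM3, the aspartate kinase gene at the head of threonine and methionine synthesis, fell by 1.66 ± 0.20. ARG5,6 fell by 1.52 ± 0.28, SNO1, of vitamin B6 synthesis, by 1.04 ± 0.19, THR1, homoserine kinase, by 0.99 ± 0.19, and ILV1, threonine deaminase, by 0.95 ± 0.17. Among these 8 genes the edgeR adjusted p ran from 0.000934 (HOM3) to 0.00455 (THR1), and THR1 was lost without wild-type library 2 (-0.91, adjusted p = 0.0669). LYS20 and LYS21 are 95.3% identical to each other, which makes their separate counts uncertain. LYS21 was called lower (-0.76, edgeR adjusted p = 0.047), a call lost with RLE factors (0.0506) and without wild-type library 1 (-0.93, adjusted p = 0.0585) or 2 (-0.56, adjusted p = 0.298). LYS20 did not pass (-0.62, adjusted p = 0.22), was called lower with a replicate block (0.0453) and stood at -1.34 without deletion library 1.

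The 2 deletion libraries differed in how far these genes fell. All 40 were lower in deletion library 2 than in deletion library 1, whereas 13 of 40 were lower in wild-type library 2 than in wild-type library 1. The summed level of the 40 was 55740 and 59566 CPM in the wild type and 43850 and 29899 CPM in the deletion. GCN4 itself was higher in deletion library 2 than in deletion library 1. The median change was -0.49 without deletion library 2 and -1.08 without deletion library 1.

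**Figure D4:**
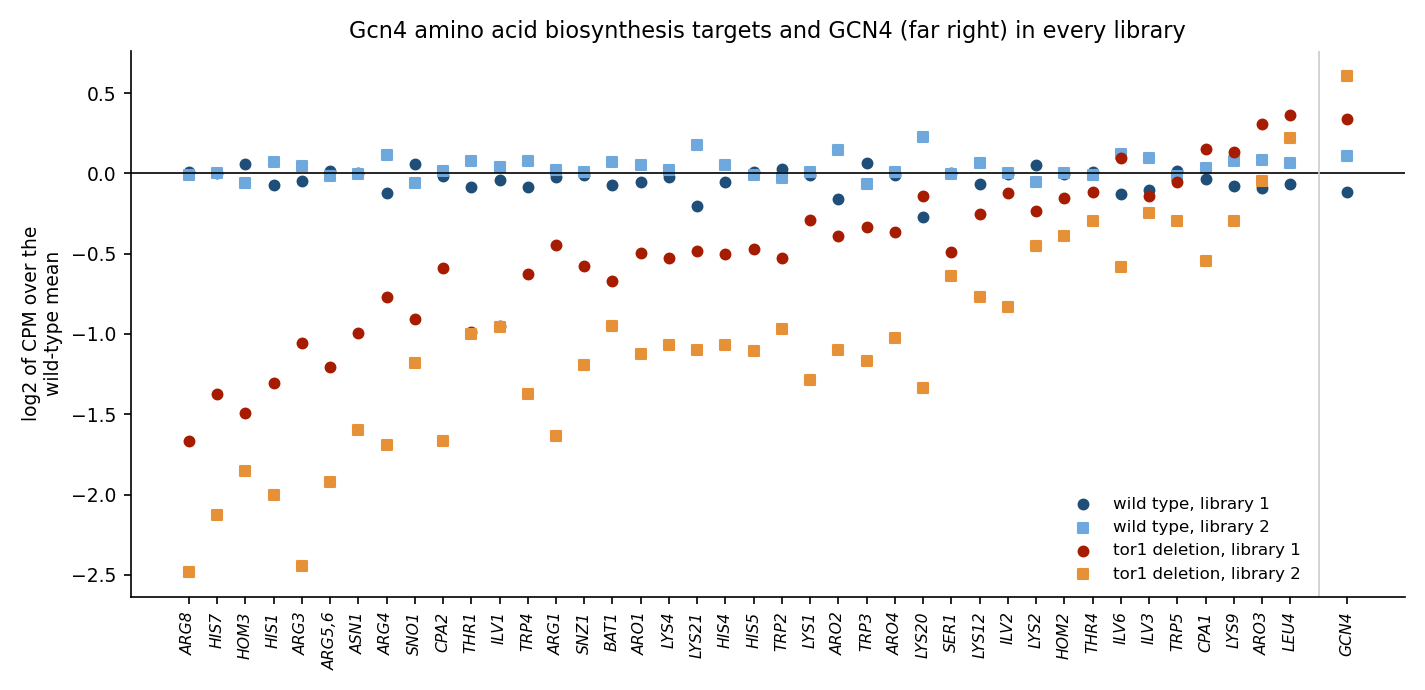
Log2 ratio of CPM to the wild-type mean for the 40 Gcn4 target genes, ordered by fold change, and for GCN4 at the far right, with each library as a point. The orange squares of deletion library 2 lie below the red circles of deletion library 1 for all 40 targets, and for GCN4 they lie above.

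The Gcn4 binding site was looked for as TGACTCA on either strand in the 250 bases before each start codon, where it reads TGAGTCA on the other strand. It was found at 19 of the 40 target genes, at 0 of the 10 genes of this pathway core and at 2.16% of the 6021 coding genes of R64. Of the 19 targets with the motif 12 were called lower and of the 21 without it 10 were. The median changes of these groups were close, at -0.76 and -0.70. LEU4, a named target that did not pass, also holds the motif, which begins 101 bases before its start codon and is not printed. A site is shown for each of the 5 named target genes that were called lower and hold the motif. Sites run 5′ to 3′ along the gene's strand, from the RefSeq R64 genome, with the motif in capitals and 10 bases on either side.
ARG8: gctcgctatgTGACTCActtaaagtac
HIS7: aaaaaaaaatTGAGTCAtatcgtagct
HIS1: agcttccaagTGAGTCAcctctaccgt
ARG5,6: cttatccgaaTGACTCAgtctacatca
SNO1: ccttgtcggcTGAGTCAttatgtcatg
They lie at chrXV:58569-58595 (plus), chrII:716680-716706 (minus), chrV:265953-265979 (minus), chrV:295177-295203 (plus) and chrXIII:458144-458170 (minus). The motif begins 180 bases before the start codon of ARG8, 231 before HIS7, 184 before HIS1, 223 before ARG5,6 and 201 before SNO1. A match describes the letters in the window and does not show binding.

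Other initiation factors were set beside these genes without a test between the groups. Of 5 core eIF3 genes 2 were called lower, where 24.9% of all tested genes were. These were RPG1 at -1.80 ± 0.17 and PRT1 at -0.79 ± 0.17. The others were at -0.84 ± 0.35 (NIP1), -0.22 ± 0.18 (TIF34) and 0.16 ± 0.17 (TIF35). NIP1 was called lower with the likelihood ratio test (adjusted p = 0.0423), a replicate block (0.00747), library totals (-1.16) and upper quartile factors (-1.24). Its change was -1.49 without deletion library 2. Under library totals and upper quartile factors TIF34 was called lower (-0.55 and -0.62) and TIF35 turned to -0.16 and -0.24. The PRT1 call was lost without wild-type library 1 (-0.74, adjusted p = 0.118) or 2 (-0.84, adjusted p = 0.0626). Of 6 genes for eIF4F and the poly(A)-binding protein, 1, PAB1, was called higher at 0.62 ± 0.18, where 26.9% of all tested genes were. The call ended under library totals (0.29) and upper quartile factors (0.22) and when either wild-type library was removed (0.65 and 0.59). The other 5 did not pass, among them TIF1 and TIF2, whose counts are uncertain since they are 99.5% identical. TIF1 (-0.70) was called lower with a replicate block (adjusted p = 0.0242), library totals (-1.03) and upper quartile factors (-1.10). It stood at -1.07 without wild-type library 1, -0.84 without deletion library 1 and -0.55 without deletion library 2. TIF4631 (-0.46) was called lower under upper quartile factors (-0.85) or library totals (-0.78). It stood at -0.34 without deletion library 1 and -0.59 without deletion library 2.

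Among 4974 genes with a mean log2 CPM of at least 4, the profiles nearest to GCN3 over the 4 libraries, by Euclidean distance of centred log2 CPM, were those of THI80 (0.0339), RPP0 (0.0425) and RPL40A (0.0625). RPP0 and RPL40A encode ribosomal proteins and THI80 thiamin pyrophosphokinase. The nearest to GCN4 were GLN1, glutamine synthetase (0.0444), CYT2 (0.0562) and CDC50 (0.0605), and the nearest to GCN2 were ALG3 (0.0897), DIB1 (0.0957) and YDL085C-A (0.0968). With 4 libraries such nearness is a description of these samples. The 10 genes are spread over 8 chromosomes, and each has a single coding exon. None overlaps an annotated gene in R64 and none has a near-identical copy. Overlap with the 1039 of 7127 counted features that were not matched to R64 was not checked.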

How the data were processed

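Poly(A) RNA libraries of 2 strains, 2 each, were grouped by their titles. Gene-level raw counts, 1 file for each library, were deposited by the authors; FastQC, Subread, featureCounts and the build sacCer3 are named, without versions, per the submitters' processing notes. Alignment settings and strand use in counting were not given in the sources used, so reads of a gene and an antisense partner cannot be told apart. The deposited log10 table held each count scaled by 1 factor for its library, with 1 added before the logarithm, and served as an alternative on the log2 scale with a pseudocount of 1.

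The counts were tested with edgeR 4.0.16 in R 4.3.3 (quasi-likelihood, strain as the only term, filterByExpr, TMM), which left 6197 of 7127 features. The SE was taken from the F statistic as the size of the log2 change over its root. The authors' table was tested with limma 3.58.1, and DESeq2 1.42.0 was another alternative. The 15 alternatives changed the tool, scaling, filter, gene set or libraries, or added a replicate block. The fit was also tested on simulated data. Positions, coding lengths and sequences came from RefSeq R64, the assembly that sacCer3 represents. Copies were sought with blastn 2.17.0 at 90% identity over 50% of the shorter gene. Depth was 8060480 to 14446057 counts, where 3 counts equal 0.208 to 0.372 CPM; this floor covers counting error only. Libraries of a strain varied beyond sampling noise (chi-square per degree of freedom of 19.6 and 72.7) and were all kept.

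The 10 genes and all lists were chosen with earlier results of these data known. Named were the 10 genes, every gene of lists of up to 7, the 8 targets with the smallest p, and the 3 nearest profiles of GCN3, GCN2 and GCN4. LEU4 and ARO3 were named as the targets above 0, LYS20 and LYS21 for their near-identity, and neighbouring genes after their values were seen. Protein sequences were not used here. A further motif site is not reported here.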

Additional observations from a re-analysis of the deposited data

How the results depend on the processing

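GCN3 and GCD6 kept their call in all 15 alternatives, between -1.85 and -1.32 and between -1.74 and -1.25. GCD2 kept it in 14. Over all tested genes, upper quartile factors gave 2508 lower calls and library totals 2328, and leaving out a library gave 1051 to 2227 higher and 925 to 2172 lower. Of the 10 genes, 5 were lower with the edgeR likelihood ratio test, 7 with upper quartile factors and 5 with library totals, and leaving out a library gave 2 to 5 lower and 0 to 1 higher. The replicate numbers are not stated to pair libraries, and same-numbered libraries deviated with a correlation of -0.0659. With the replicate block 5 of the 10 genes were lower, GCD1 (adjusted p = 0.0214) and GCN2 (adjusted p = 0.0391) being added. Of 40 targets, 10 to 33 were lower with a library left out. Of the 26 other pathway genes, 10 were lower with upper quartile factors and 10 with library totals, and 1 to 10 lower and 3 to 9 higher with a library left out; their median was -0.47 and -0.40 under those scalings and ran from -0.14 to 0.067 with a library left out. With a library left out, SUI3 ran from -0.317 to 0.062 and GCD7 from -0.172 to 0.036, both turning without deletion library 1, and over all alternatives they reached -0.51 and -0.46. The motif shortened to TGACTC occurred before 375 coding genes, 26 of 40 targets and 0 of the 10 genes. The cause of these differences was not tested beyond what fewer samples or another scaling implies. Where a deletion library was left out, the lone library is assumed to vary like the wild type, whose libraries were closer together. Removing ribosomal protein genes, other filters, RLE factors and the authors' table left the number of lower genes at 3.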

Other observations

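The genes next to the 10 often changed when the gene itself did not. Of the 16 tested neighbours, 11 were called. GCD1 lies between a pair of proteasome genes that rose, RPT4, which starts 275 bases away on the other strand (0.66 ± 0.19, edgeR adjusted p = 0.023), and RPN8, which converges on it at 194 bases (1.20 ± 0.18, edgeR adjusted p = 0.00197). SUI2 is followed by MHO1, which rose by 1.72 ± 0.20, and preceded by POL31, a DNA polymerase delta subunit gene, which fell by 0.77 ± 0.24 (edgeR adjusted p = 0.000765 and 0.0295). GCD7 is preceded by SEC72, which fell by 0.57 ± 0.16, and followed by COQ11, which rose by 0.86 ± 0.18, on the same strand. The share of all tested genes called was 51.8%, so calls among neighbours are common in this comparison.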
